A study of Mus musculus with 6 samples.

Results

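The 8 genes described here belong to the Fc gamma receptor system. They are the receptor genes Fcgr1, Fcgr2b, Fcgr3 and Fcgr4, the shared signalling chain gene Fcer1g, the neonatal Fc receptor gene Fcgrt, the kinase gene Syk and the phosphatase gene Inpp5d. They were chosen by symbol, as rows of a table of 34652 genes, and all 8 passed the filter on low values, which left 11317 genes for testing. The table held bulk RNA libraries of mouse macrophages sorted out of cerebrospinal fluid, taken on day 12 of a model of leptomeningeal metastasis (LM), in which the tumour was LLC-LeptoM, a derivative of Lewis lung carcinoma. All mice were Cx3cr1CreER:mTmG animals given tamoxifen, in which cells where the Cx3cr1-driven Cre recombinase has acted switch to green fluorescence. The dLAM group (3 libraries), which the labels also call resident macrophages, was sorted as CD45+CD11b+F4/80+Ly6C-GFP+ cells. The Mono-MΦ group (3 libraries) mixed 2 gates without green fluorescence, CD45+CD11b+F4/80+GFP- cells on the one hand and cells with low F4/80 and with Ly6C (CD45+CD11b+F4/80lowLy6C+GFP-) on the other. Neither the age of the mice nor the number of mice behind a library is given in the labels, and no group without tumour cells was analysed here. The comparison asks how the Fc receptor equipment of resident macrophages differs from that of monocyte-derived macrophages in the same fluid.

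Fc gamma receptors bind the constant part of IgG and couple antibody-coated targets to uptake and killing by macrophages. In the mouse, the activating receptors encoded by Fcgr1, Fcgr3 and Fcgr4 have no signalling motif of their own and pair with the FcR gamma chain (Fcer1g), whose immunoreceptor tyrosine-based activation motif (ITAM) is phosphorylated by Src family kinases and then recruits Syk. The receptor encoded by Fcgr2b carries an inhibitory motif instead and recruits the lipid phosphatase SHIP1 (Inpp5d), which opposes the signal. The neonatal Fc receptor (Fcgrt) pairs with beta-2 microglobulin inside endosomes and returns IgG and albumin to the cell surface.

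On GRCm38 (GENCODE M21 gene models), Fcgr2b (170958617 to 170976547, minus strand), Fcgr4 (171018920 to 171029761, plus strand), Fcgr3 (171051174 to 171064935, minus strand) and Fcer1g (171229572 to 171234365, minus strand) follow each other on chromosome 1. Inpp5d lies on the same chromosome (87620312 to 87720507, plus strand). Fcgr1 is on chromosome 3 (96282909 to 96293969, minus strand), Fcgrt on chromosome 7 (45092990 to 45103851, minus strand) and Syk on chromosome 13 (52583173 to 52648792, plus strand). Fcgr2b and Fcgr3 are close relatives, and their coding sequences (1020 and 801 bases) share an identical run of 129 bases, at coding positions 278 to 406 of Fcgr2b. It is shown because read fragments that fall inside it cannot be assigned to either gene:
Fcgr2b and Fcgr3 shared run: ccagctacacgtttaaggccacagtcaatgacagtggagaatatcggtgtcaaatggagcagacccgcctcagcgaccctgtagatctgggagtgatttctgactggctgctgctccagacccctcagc
Of all 50-base windows of the Fcgr2b coding sequence, 17.1% also occur in Fcgr3, and of those of Fcgr3, 22.1% occur in Fcgr2b. Fcgr1 and Fcgr4 share no such window with each other or with that pair. How the authors treated reads with several possible positions is not given in the sources used here, so the levels of Fcgr2b and Fcgr3 are uncertain by an unknown amount. The percentages hold for coding sequence only. The annotated exons span 5790 bases in Fcgr2b and 1736 bases in Fcgr3, and their untranslated parts were not compared. Of the Fcgr2b exons, 155 bases (2.68%) also lie opposite exons of the unnamed gene Gm38204. No exon base of the other 7 genes overlapped another annotated gene.

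The 250 bases before the RefSeq transcription start (GRCm38.p6) are shown for the 3 receptor genes that differed between the groups, Fcgrt, Fcgr2b and Fcgr4, and for Fcgr1, whose promoter is known for its interferon gamma response. Capitals mark matches, on either strand, to AGGAAG (the core bound by Ets family factors such as PU.1, the master factor of macrophages), TTCNNNGAA (the STAT dimer motif) and the tandem GAAA motif of interferon regulatory factors (GAAA, any 2 bases, GAAA).
Fcgrt chr7:45103823-45104072, minus strand: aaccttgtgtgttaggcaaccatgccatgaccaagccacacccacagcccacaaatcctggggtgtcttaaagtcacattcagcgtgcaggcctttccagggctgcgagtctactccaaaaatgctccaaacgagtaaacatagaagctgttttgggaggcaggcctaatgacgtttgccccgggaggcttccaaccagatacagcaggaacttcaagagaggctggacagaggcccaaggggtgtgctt
Fcgr2b chr1:170976072-170976321, minus strand: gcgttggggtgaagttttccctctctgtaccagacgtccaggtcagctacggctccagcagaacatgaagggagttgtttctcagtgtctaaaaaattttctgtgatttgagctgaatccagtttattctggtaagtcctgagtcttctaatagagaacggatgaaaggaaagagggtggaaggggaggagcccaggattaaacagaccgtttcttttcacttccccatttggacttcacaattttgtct
Fcgr4 chr1:171018676-171018925, plus strand: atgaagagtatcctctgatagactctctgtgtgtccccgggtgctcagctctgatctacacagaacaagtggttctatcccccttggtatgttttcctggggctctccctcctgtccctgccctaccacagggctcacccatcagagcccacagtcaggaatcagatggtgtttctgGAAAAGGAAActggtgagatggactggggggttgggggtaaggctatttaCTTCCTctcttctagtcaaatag
Fcgr1 chr3:96293970-96294219, minus strand: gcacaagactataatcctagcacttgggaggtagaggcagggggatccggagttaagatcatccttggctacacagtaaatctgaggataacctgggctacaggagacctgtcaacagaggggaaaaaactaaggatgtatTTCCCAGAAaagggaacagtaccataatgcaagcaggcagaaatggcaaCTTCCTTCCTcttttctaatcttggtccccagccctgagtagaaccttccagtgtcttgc
The Fcgr1 window held 1 STAT motif, starting 109 bases before the start site, and 2 overlapping AGGAAG matches at 60 and 56 bases. The Fcgr4 window held 1 AGGAAG match at 23 bases and 1 tandem GAAA motif at 73 bases. The Fcgr2b and Fcgrt windows held none of these letters. Among all 8 genes, 5 had an AGGAAG match (29.5% of 32851 mouse promoter windows of this length had it), 1 had TTCNNNGAA (7.02% of windows) and 1 had the tandem GAAA motif (2.98%). These matches are descriptions of sequence and not of binding.

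Levels are in the authors' deposited FPKM, a unit that divides the fragments of a gene by its length and by the size of the library. Steps in the low values gave an estimated depth of 1.23e+07 to 1.70e+07 fragments per library. At that depth the 8 genes rested on an estimated 255 (Fcgrt in Mono-MΦ library 2) to 9231 (Fcgr2b in dLAM library 1) fragments, for a counting error of at most 6.26%. Of all 11317 genes tested, 2249 (19.9%) were higher and 1204 (10.6%) lower in dLAMs (limma on log2(FPKM + 1), Benjamini-Hochberg adjusted p under 0.05), or 1799 and 1702 with quantile normalization, under which the median over all genes tested was -0.05 on the log2 scale, against 0.06 as deposited. Without dLAM library 2, 780 genes were lower. Whether the libraries of a group stem from different mice is not in the labels, and the p-values describe the spread between libraries only, which may be technical. The markers followed the sort: all 8 border macrophage genes, Mrc1 and Lyve1 among them, were higher in dLAMs (summed level 213 to 231 FPKM, against 11.2 to 24.5 in Mono-MΦs) and all 7 classical monocyte genes lower (724 to 955 against 3241 to 4579 FPKM). Of the border macrophage genes, Lyve1, Cd163, Timd4 and Folr2 were under 1 FPKM in every Mono-MΦ library. These passed the filter on low values through their dLAM libraries alone, so that they could only be higher. Markers of other cells moved with the groups too. Summed levels in dLAMs against Mono-MΦs were 171 to 207 against 4.77 to 26.0 FPKM for 9 T cell genes, 88.3 to 149 against 12.8 to 15.9 for 7 dendritic cell genes, 18.5 to 31.8 against 1.49 to 4.69 for 7 B and plasma cell genes, 45.5 to 106 against 1.81 to 3.32 for 9 mast cell, basophil and eosinophil genes, 16.1 to 25.8 against 3.35 to 6.90 for 7 natural killer (NK) cell genes and 1317 to 1701 against 2033 to 11991 for 11 neutrophil genes. For 4 carcinoma cell genes the sums were 5.89 to 9.66 FPKM in dLAMs against 0.354 to 0.715 FPKM in Mono-MΦs. Most of the dLAM sum was Epcam alone (5.86, 4.70 and 7.50 FPKM in dLAM libraries 1 to 3). Krt8 and Krt19 were under 1 FPKM in every library and overlapped between the groups, so the sums are a weak sign of carcinoma cells. The defining mast cell markers Cpa3, Mcpt4 and Cma1 were listed at 0 in every Mono-MΦ library, and none of these markers was at 0 in all dLAM libraries.

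Of the 8 genes, 4 were higher in dLAMs (Fcgrt, Fcgr2b, Fcgr4 and Inpp5d) and 1, Syk, was lower. Beside these counts, 19.9% of all genes tested were higher and 10.6% lower. Of all genes tested, 555 passed the filter on low values through their dLAM libraries alone and 88 through their Mono-MΦ libraries alone. The direction of those genes was thereby fixed, whereas each of the 8 genes was above 1 FPKM in every library. The 3 dLAM libraries lay above the 3 Mono-MΦ libraries for 5 of the genes and below them for 1, and such separation was seen for 29.3% and 16.9% of all genes. The median log2 fold change of the 8 genes was 0.46, against 0.06 for all genes tested. In bulk libraries such as these, fewer cells that express a gene and less RNA per cell cannot be told apart.

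**Figure D1:**
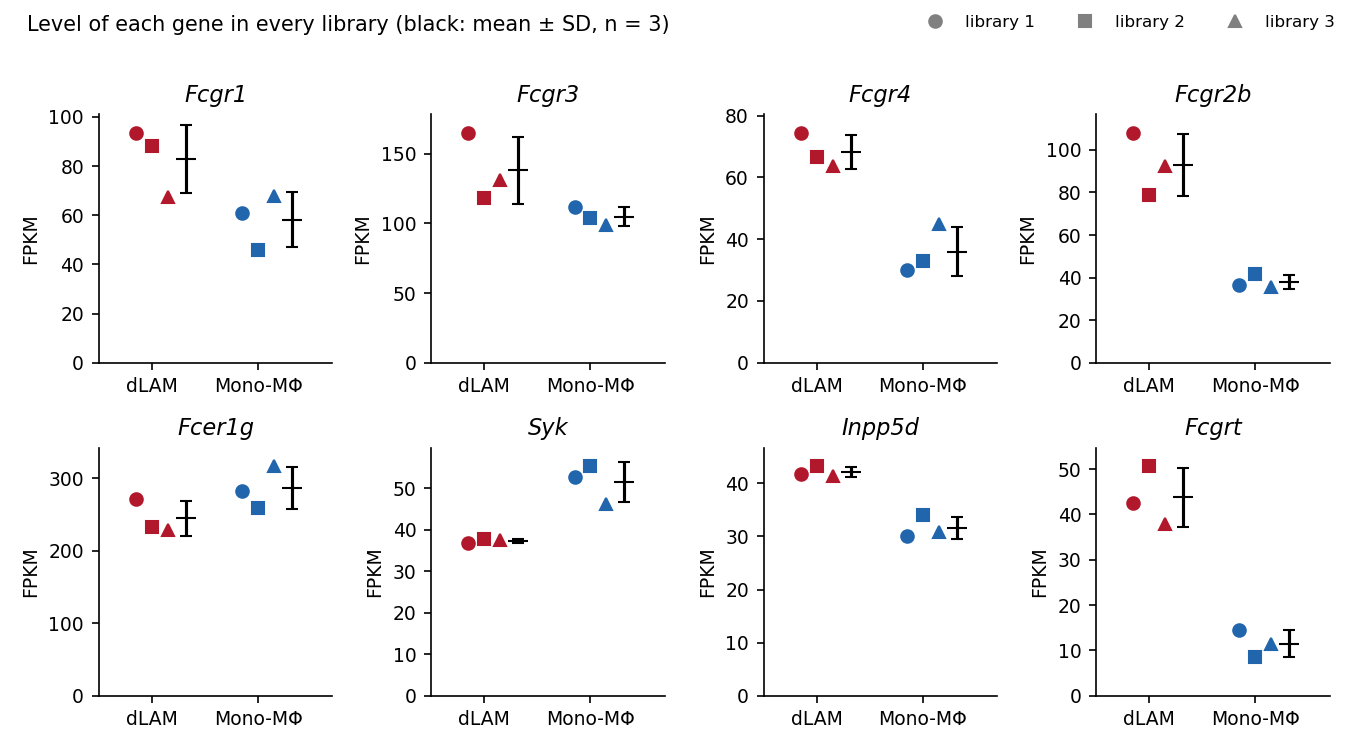
FPKM of the 8 genes in each library (red, dLAM libraries; blue, Mono-MΦ libraries; the symbol gives the library number, and the black mark with bars is the mean ± SD, n = 3). The groups do not overlap for Fcgr3, Fcgr4, Fcgr2b, Syk, Inpp5d and Fcgrt, and overlap for Fcgr1 and Fcer1g.

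Among the activating receptors, Fcgr4 was clearly higher in dLAMs, while Fcgr1 and Fcgr3 had smaller differences that did not pass the test. Fcgr4, a mouse receptor for IgG2a and IgG2b that is typical of monocytes, macrophages and neutrophils, was at 74.4, 66.6 and 63.7 FPKM in dLAM libraries 1 to 3, against 30.0, 33.0 and 44.9 FPKM in Mono-MΦ libraries 1 to 3. Every dLAM library lay above every Mono-MΦ library, and Mono-MΦ library 3 came nearest. The means were 68.2 ± 5.51 and 35.9 ± 7.86 FPKM (SD, n = 3 each), a ratio of 1.90 and a log2 fold change of 0.92 (SE 0.16, limma adjusted p = 0.0037). The change held without any single library, at log2 fold changes between 0.81 and 1.09. In the same dLAM libraries 5 of the 11 neutrophil markers were lower and the other 6 did not pass. All 7 classical monocyte markers were lower, and none of the 5 tested non-classical monocyte markers was called. Of 5 general macrophage markers, 3 were higher and 2 not called. The part of these cells in the Fcgr4 difference was not tested.

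Fcgr1, the high-affinity IgG receptor CD64, was at 93.5, 88.1 and 67.4 FPKM in dLAM libraries, against 61.1, 45.7 and 67.8 FPKM in Mono-MΦ libraries. The groups met at dLAM library 3 and Mono-MΦ library 3, which were almost equal. The means of 83.0 ± 13.7 and 58.2 ± 11.3 FPKM (SD, n = 3 each) gave a log2 fold change of 0.51 with a 95% interval of 0.09 to 0.93 and an adjusted p of 0.070 in limma. This gene passed without dLAM library 3 (0.65, adjusted p = 0.046), on the TPM scale, with quantile normalization and with a term for Y-linked RNA, which was higher in dLAM library 3 and Mono-MΦ library 2 than in the rest. In the 4 remaining libraries, 2 per group, which had less Y-linked RNA, the log2 fold change was 0.49 with an adjusted p of 0.052.

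Fcgr3, the low-affinity receptor CD16, had the highest mean FPKM of the 4 receptor genes. It was at 165, 118 and 131 FPKM in dLAM libraries, against 112, 104 and 98.7 FPKM in Mono-MΦ libraries. All dLAM libraries were the higher ones, but dLAM library 2 exceeded Mono-MΦ library 1 by little. The log2 fold change was 0.38 (95% interval 0.05 to 0.71, limma adjusted p = 0.080), and with quantile normalization it was 0.51 and passed (adjusted p = 0.017). Summed NK cell markers were higher in dLAMs (16.1 to 25.8 against 3.35 to 6.90 FPKM). So were those of mast cells, basophils and eosinophils (45.5 to 106 against 1.81 to 3.32 FPKM), while 5 of the 11 neutrophil markers were lower. The part of any of these cells in the Fcgr3 difference was not tested.

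Fcgr2b, the inhibitory receptor CD32B, showed a larger difference than any of the 3 activating receptor genes in these values. It was at 108, 78.6 and 92.3 FPKM in dLAM libraries, against 36.4, 41.9 and 35.7 FPKM in Mono-MΦ libraries. The lowest dLAM library stood well above the highest Mono-MΦ library. The means were 92.9 ± 14.6 and 38.0 ± 3.40 FPKM (SD, n = 3 each), a ratio of 2.45 and a log2 fold change of 1.26 (SE 0.14, limma adjusted p = 4.9e-04), above 94.4% of all genes tested. Leaving out single libraries gave 1.15 to 1.37. Fcgr2b is also the Fc receptor of B cells and is found on dendritic cells. In the same dLAM libraries the B and plasma cell markers summed to between 18.5 and 31.8 FPKM and the dendritic cell markers to between 88.3 and 149 FPKM, both higher than in Mono-MΦs, and their part in the Fcgr2b difference was not tested.

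Inpp5d, which encodes SHIP1, the phosphatase that the Fcgr2b product recruits, was higher in dLAMs by a smaller step. Its levels were 41.8, 43.3 and 41.4 FPKM in dLAM libraries, against 30.1, 34.0 and 30.9 FPKM in Mono-MΦ libraries. The dLAM libraries were close to each other and all above the Mono-MΦ libraries. The means of 42.2 ± 0.983 and 31.7 ± 2.07 FPKM (SD, n = 3 each) had a ratio of 1.33 and a log2 fold change of 0.40 (SE 0.09, limma adjusted p = 0.013). Without dLAM library 2 the adjusted p was 0.053. Inpp5d is expressed by lymphocytes as well, and the T cell markers, at a summed 171 to 207 FPKM in dLAMs against 4.77 to 26.0 in Mono-MΦs, moved with it. Their part was not tested.

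Fcer1g, the FcR gamma chain that carries the ITAM for the activating receptors, had the highest mean FPKM of the 8 genes in both groups and did not pass the test. It was at 272, 233 and 229 FPKM in dLAM libraries, against 283, 259 and 317 FPKM in Mono-MΦ libraries. The dLAM libraries tended to the lower side, with an overlap at dLAM library 1. The log2 fold change was -0.23 with a 95% interval of -0.53 to 0.08 (limma adjusted p = 0.25), and it ranged from -0.31 to -0.07 over all alternatives, none of which passed. Fcer1g is also expressed by mast cells and NK cells, whose markers were higher in dLAMs. Other myeloid markers went the other way, as 5 of the 11 neutrophil markers and all 7 classical monocyte markers were lower in dLAMs. The part of any of these cells in the Fcer1g level was not tested.

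Syk, the tyrosine kinase that binds the phosphorylated ITAM, was the gene of the set that fell. Its levels were 36.7, 37.7 and 37.6 FPKM in dLAM libraries, against 52.8, 55.4 and 46.1 FPKM in Mono-MΦ libraries. The 3 dLAM libraries were nearly equal and all below the Mono-MΦ libraries. The means of 37.3 ± 0.573 and 51.4 ± 4.80 FPKM (SD, n = 3 each) gave a log2 fold change of -0.45 (SE 0.10, limma adjusted p = 0.012). The call ended on the TPM scale (-0.40, limma adjusted p = 0.057) and in the 4 libraries that had less Y-linked RNA (-0.40, limma adjusted p = 0.085). All 7 classical monocyte markers and 5 of the 11 neutrophil markers were lower in dLAMs too. In contrast, summed levels were higher in dLAMs for B and plasma cell genes (18.5 to 31.8 against 1.49 to 4.69 FPKM). The same held for T cell genes (171 to 207 against 4.77 to 26.0 FPKM). It also held for mast cell, basophil and eosinophil genes (45.5 to 106 against 1.81 to 3.32 FPKM). What any of these cells contributed to the Syk difference was not tested.

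Fcgrt, the alpha chain of the neonatal Fc receptor, had the largest difference of the 8 genes. It was at 42.6, 50.7 and 37.9 FPKM in dLAM libraries, against 14.4, 8.63 and 11.5 FPKM in Mono-MΦ libraries. No Mono-MΦ library came near the dLAM libraries. The means were 43.7 ± 6.46 and 11.5 ± 2.87 FPKM (SD, n = 3 each), a ratio of 3.80 and a log2 fold change of 1.85 (SE 0.19, limma adjusted p = 3.7e-04), above 97.3% of all genes tested. B2m, its beta-2 microglobulin partner and also the light chain of MHC class I, was higher by less, at 1401, 1327 and 1081 FPKM in dLAM libraries against 801, 605 and 879 FPKM in Mono-MΦ libraries (log2 fold change 0.74, SE 0.21, limma adjusted p = 0.030). Summed markers of dendritic cells (88.3 to 149 against 12.8 to 15.9 FPKM), B and plasma cells and carcinoma cells (mostly Epcam) were also higher in dLAMs. Their part in the Fcgrt difference was not tested.

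**Figure D2:**
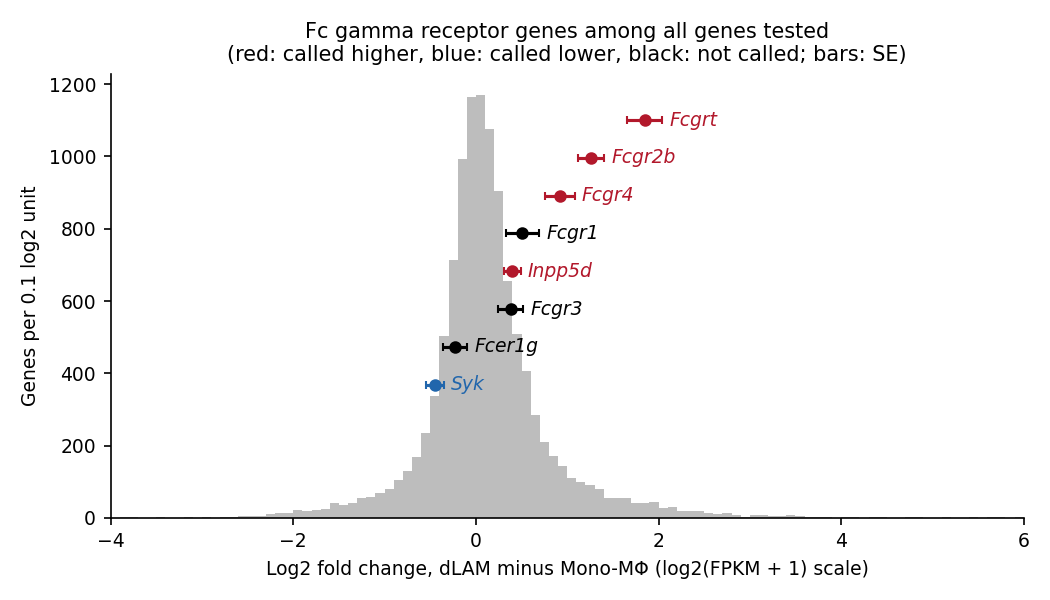
Log2 fold change (dLAM minus Mono-MΦ) of the 8 genes, with SE bars, over the histogram of all 11317 genes tested, in bins of 0.1 log2 units. Fcgrt, Fcgr2b and Fcgr4 sit in the right flank of the distribution at 1.85, 1.26 and 0.92, and Syk and Fcer1g sit to the left of zero at -0.45 and -0.23.

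The order of the levels differed between the groups on the FPKM scale. FPKM is scaled by gene length, but the lengths used were not given in the sources used here, so the order depends on them. In dLAMs the mean FPKM ran from Fcer1g (245) over Fcgr3 (138), Fcgr2b (92.9), Fcgr1 (83.0), Fcgr4 (68.2), Fcgrt (43.7) and Inpp5d (42.2) to Syk (37.3). Fcgr2b and Fcgr1, Fcgr1 and Fcgr4, and Fcgrt and Inpp5d were neighbours whose libraries overlapped. In Mono-MΦs the mean FPKM ran from Fcer1g (286) over Fcgr3 (105), Fcgr1 (58.2), Syk (51.4), Fcgr2b (38.0), Fcgr4 (35.9) and Inpp5d (31.7) to Fcgrt (11.5). There, Fcgr1 and Syk, Fcgr2b and Fcgr4, and Fcgr4 and Inpp5d overlapped. Syk stood above Fcgr2b in Mono-MΦs and last in dLAMs, and Fcgrt stood last in Mono-MΦs.

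Ratios within a library, which no scaling of whole libraries can change, showed the balance of activating and inhibitory genes. They are given with no test. The FPKM ratio of Fcgr3 to Fcgr2b was 1.53, 1.51 and 1.42 in dLAM libraries, against 3.09, 2.48 and 2.77 in Mono-MΦ libraries, with no overlap. The shared coding run bears on this ratio in particular. The ratio of Fcgr1 to Fcgr2b was 0.868, 1.12 and 0.731 in dLAM libraries, against 1.68, 1.09 and 1.90 in Mono-MΦ libraries, where Mono-MΦ library 2 fell among the dLAM values. The ratio of Fcgr4 to Fcgr2b overlapped between the groups, at 0.690, 0.847 and 0.690 in dLAM libraries against 0.825, 0.787 and 1.26 in Mono-MΦ libraries. Fcgr4 and Fcgr2b were both higher in dLAMs, so their balance moved less than that of Fcgr3 and Fcgr2b (mean log2 differences of -0.34, or -0.12 without Mono-MΦ library 3, and -0.90). As a share of the summed FPKM of the 4 receptor genes, Fcgr2b made up 24.4%, 22.3% and 26.0% in dLAM libraries, against 15.2%, 18.6% and 14.4% in Mono-MΦ libraries. The sum itself was 441, 352 and 355 FPKM in dLAM libraries, against 240, 225 and 247 FPKM in Mono-MΦ libraries. Shares and sum both depend on the gene lengths used.

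**Figure D3:**
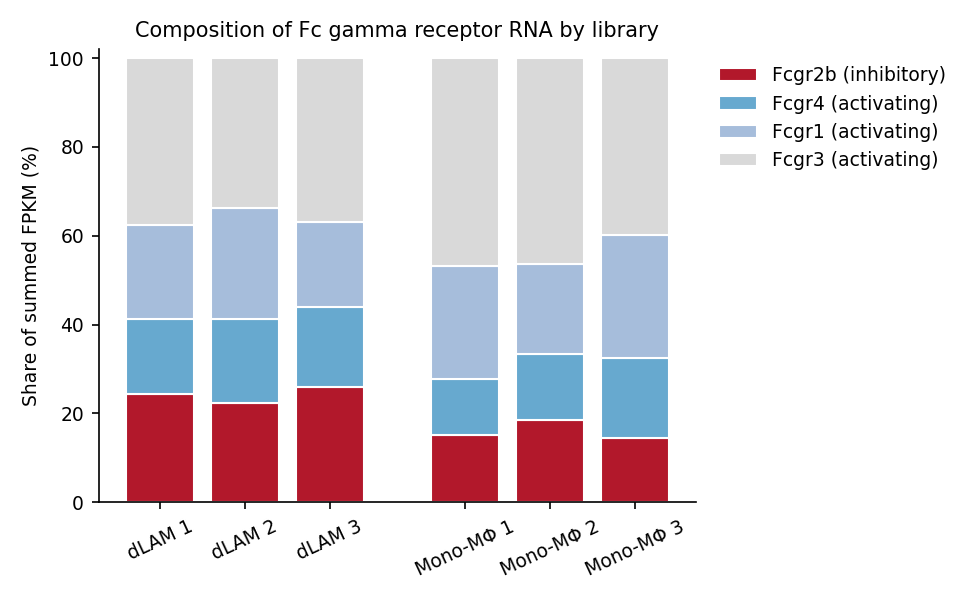
Share of each receptor gene in the summed FPKM of Fcgr1, Fcgr2b, Fcgr3 and Fcgr4, in percent, for each of the 3 dLAM and 3 Mono-MΦ libraries. The Fcgr2b segment at the base spans 22.3% to 26.0% in dLAMs and 14.4% to 18.6% in Mono-MΦs.

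The signalling partners were set against the receptors and each other in the same way, with no test. The ratio of Fcer1g to the sum of the 3 activating receptor genes it serves was 0.818, 0.854 and 0.871 in dLAM libraries, against 1.39, 1.42 and 1.50 in Mono-MΦ libraries. Receptor RNA thus exceeded the RNA of the shared chain in each dLAM library and was below it in each Mono-MΦ library, on the FPKM scale. Which of them is larger depends on the gene lengths used, which were not given. The ratio of Syk to Inpp5d, the kinase to the phosphatase, was 0.876, 0.871 and 0.908 in dLAM libraries, against 1.75, 1.63 and 1.49 in Mono-MΦ libraries. Its mean log2 difference was -0.87, and every dLAM library was below 1 and every Mono-MΦ library above 1. The difference does not depend on the gene lengths used, but the position about 1 does.

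The wider pathway was read from 6 lists with 109 genes, of which 98 were tested. In them 23 genes were higher (3 of which passed the filter through their dLAM libraries alone) and 16 lower in dLAMs, beside 19.9% and 10.6% of all genes tested, and their median log2 fold change was -0.02, against 0.06 for all genes tested. Of the 13 other Fc receptor and IgG handling genes, 5 were tested. Fcrls and Fcrla passed the filter through their dLAM libraries alone, being under 1 FPKM in every Mono-MΦ library, so that they had to be higher. The other 3, Fcrlb, B2m and Trim21, were higher as well. The remaining 8 stayed under the filter, and Fcamr was listed at 0 in every library. Fcrls, a receptor-like gene known from mouse microglia, was listed at 50.5, 34.3 and 25.7 FPKM in dLAM libraries and at 0, 0 and 0.154 FPKM in Mono-MΦ libraries (log2 fold change 5.12). Fcrlb, an intracellular Fc receptor-like protein gene, was at 12.4, 7.72 and 10.2 FPKM in dLAM libraries against 2.16, 2.77 and 1.88 FPKM in Mono-MΦ libraries (1.75). Fcrla, known from B cells, had 1.29, 1.78 and 1.10 FPKM in dLAM libraries against 0.170, 0.0661 and 0.287 FPKM in Mono-MΦ libraries (1.02). B and plasma cell markers were higher in the same dLAM libraries, and their part was not tested. Several calls of this list were fragile: 3 genes were called without dLAM library 1, dLAM library 2 or Mono-MΦ library 2, and with median-of-ratios scaling.

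Among 9 tested ITAM adaptors and receptors that pair with such chains, 2 were higher and 1 lower (median -0.26). Trem2, a lipid receptor that signals through Tyrobp, was at 13.7, 12.5 and 10.3 FPKM in dLAM libraries against 2.61, 1.51 and 3.01 FPKM in Mono-MΦ libraries (log2 fold change 1.98). Clec4n, which encodes the fungal receptor Dectin-2 and signals through the FcR gamma chain, had 46.4, 37.7 and 40.9 FPKM in dLAM libraries against 9.99, 13.0 and 11.0 FPKM in Mono-MΦ libraries (1.79). Both genes had dLAM libraries far above the Mono-MΦ libraries. Trem3, a receptor that amplifies inflammatory signals, fell (-1.56, adjusted p = 0.023 in limma), a call that ended without dLAM library 1, dLAM library 2 or Mono-MΦ library 2. Tyrobp, the other ITAM adaptor of macrophages, was at 461, 463 and 402 FPKM in dLAM libraries against 618, 542 and 556 FPKM in Mono-MΦ libraries and, like Fcer1g, did not pass (log2 fold change -0.37, limma adjusted p = 0.078).

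The Src family kinases, which phosphorylate the ITAM, went both ways. Of 5 tested, 2 were higher and 2 lower. Lyn was at 85.3, 76.6 and 77.0 FPKM in dLAM libraries against 131, 112 and 126 FPKM in Mono-MΦ libraries (log2 fold change -0.62), and Fgr at 44.5, 44.5 and 42.6 FPKM in dLAM libraries against 71.0, 78.4 and 58.7 FPKM in Mono-MΦ libraries (-0.64). Both are main Src kinases of myeloid cells and, like Syk, lay lower in all 3 dLAM libraries. Classical monocyte markers and 5 of the 11 neutrophil markers were lower there as well. Summed T cell, B and plasma cell, and mast cell genes went the other way. What any of these cells contributed to the Lyn and Fgr differences was not tested. Fyn was at 18.7, 20.2 and 20.7 FPKM in dLAM libraries against 7.27, 6.25 and 4.76 FPKM in Mono-MΦ libraries (1.57), and Src at 2.12, 2.72 and 2.13 FPKM in dLAM libraries against 0.129, 0.188 and 0.0862 FPKM in Mono-MΦ libraries (1.55). Src, too, passed the filter through its dLAM libraries alone. Fyn is also a kinase of T cells, whose markers were higher in dLAMs, and their part was not tested.

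Of 34 adaptors and enzymes downstream of Syk, 7 were higher, 6 lower and 21 not called (median -0.02). Those with the largest rises were Lat, Plcg1 and Vav2, at log2 fold changes of 2.02, 1.60 and 1.30. Lat, an adaptor best known from T cells and mast cells, had 5.55, 4.41 and 5.31 FPKM in dLAM libraries against 0.128, 1.16 and 0.366 FPKM in Mono-MΦ libraries, and Plcg1, the phospholipase C isoform of T cells, had 5.54, 5.04 and 6.82 FPKM in dLAM libraries against 1.21, 1.50 and 0.982 FPKM in Mono-MΦ libraries. Vav2 encodes an activator of Rac. The markers of T cells and mast cells rose in the same libraries, and their part was not tested. Those with the largest falls were Card9, the adaptor between Syk and NF-kB (-0.60), Plcg2, the phospholipase C isoform of myeloid and B cells (-0.52), and the Ras activator Sos2 (-0.47). Plcg2 was at 90.3, 97.3 and 85.2 FPKM in dLAM libraries against 143, 118 and 131 FPKM in Mono-MΦ libraries. Only 2 genes of this list were lower on the TPM scale and without dLAM library 1, dLAM library 2 or Mono-MΦ library 2.

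**Figure D4:**
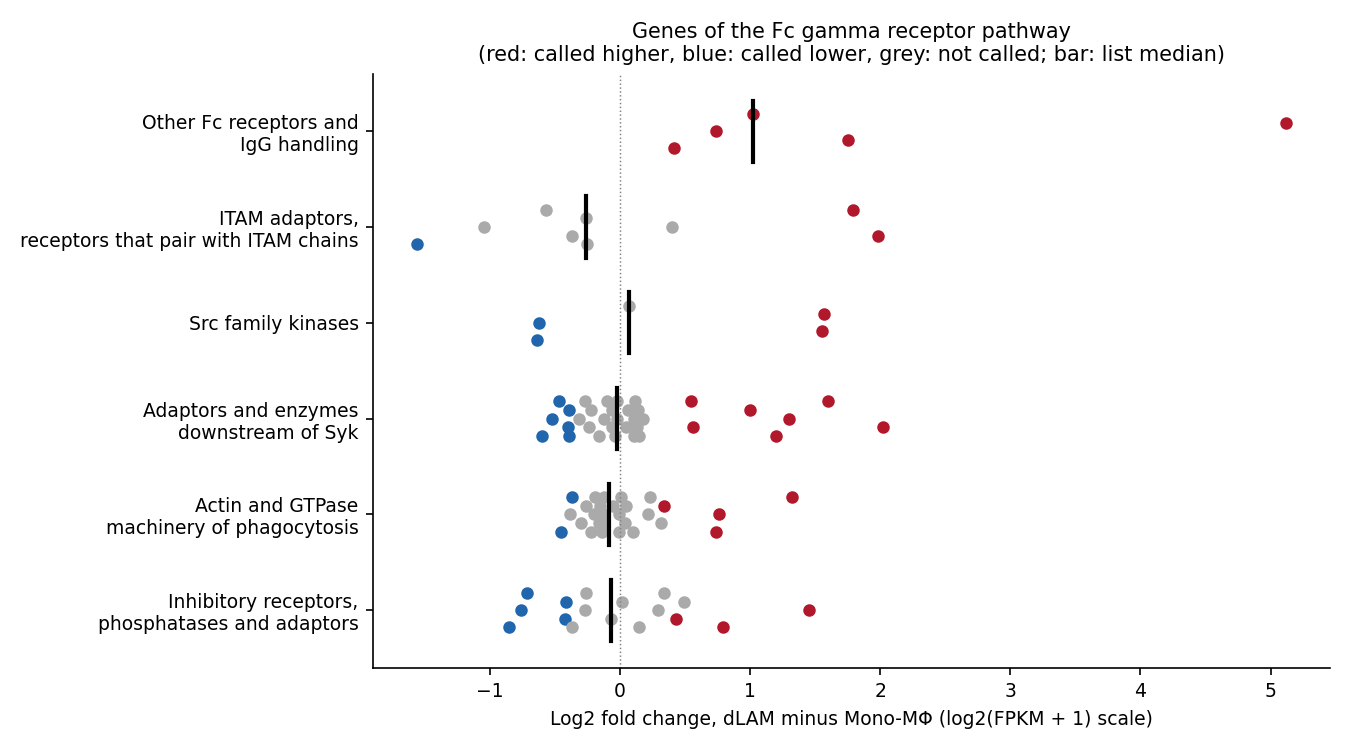
Log2 fold change (dLAM minus Mono-MΦ) of the 98 tested genes in the 6 pathway lists, 1 point per gene (red, called higher; blue, called lower; grey, not called; black bar, list median). The top row holds 5 genes, of which Fcrls (5.12) and Fcrla (1.02) passed the filter through their dLAM libraries alone, and without the filter its median was 0.54. In the row of genes downstream of Syk, 21 of the 34 points are grey.

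Of 28 genes of the actin and GTPase machinery that draws a particle into the cell, 22 were not called, 4 were higher and 2 lower (median -0.09). Pak1, a kinase activated by Rac and Cdc42, was higher by 1.32 on the log2 scale, Limk1, which phosphorylates cofilin, by 0.76, and the filament elongation factor gene Vasp by 0.74. Coro1a and Rac2, genes of leukocyte actin control, fell by 0.45 and 0.37. Between 0 and 1 genes of this list were lower when any single library was left out.

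The inhibitory receptors, phosphatases and adaptors held 3 higher, 5 lower and 9 uncalled genes of 17 (median -0.07). Of all genes tested, 19.9% were higher and 10.6% lower. Dok2, an adaptor that dampens Ras signalling, had 19.3, 18.7 and 17.1 FPKM in dLAM libraries against 6.37, 6.22 and 5.61 FPKM in Mono-MΦ libraries (log2 fold change 1.45). Inppl1, which encodes SHIP2, the relative of the Inpp5d product, was higher by 0.79, and Csk, the kinase that switches Src kinases off, by 0.43. Pirb, an inhibitory receptor for MHC class I, was at 62.9, 43.5 and 52.4 FPKM in dLAM libraries against 86.6, 103 and 96.0 FPKM in Mono-MΦ libraries (-0.85). Dok3 and the inhibitory receptor gene Cd300a fell by 0.76 and 0.71. Classical monocyte markers and some of the neutrophil markers were lower in dLAMs as well. Summed T cell, B and plasma cell, and mast cell genes were higher. What any of these cells contributed to these falls was not tested. Ptpn6, the phosphatase SHP-1 that many inhibitory receptors recruit, had 138 ± 21.0 FPKM in dLAMs and 136 ± 16.7 FPKM in Mono-MΦs (SD, n = 3 each). Genes of this list went both ways, and the list median was not raised as Fcgr2b and Inpp5d were. Without dLAM library 1, 2 or 3, 3 genes of the list were lower.

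Likeness of pattern was measured as the root mean square difference of centred log2(FPKM + 1) values over the 6 libraries. For Fcgrt the nearest genes were Tgfbr2 (difference 0.0840) and Tmem176a (0.109). For Fcgr2b they were Trbv12-2 (0.0756), a T cell receptor segment listed at 0 in every Mono-MΦ library, and Cadm1 (0.0758). For Fcgr4 they were Enpp4 (0.0693) and Zfp395 (0.0706). For Syk they were Ncln (0.0363) and St3gal4 (0.0366), and for Inpp5d Gart (0.0243) and Wdr12 (0.0270). Trbv12-2, Cadm1 and Enpp4 were under 1 FPKM in every Mono-MΦ library and passed the filter through their dLAM libraries alone. Their nearness depends on the added 1, which shrinks changes of low genes. Cadm1 was at 1.80, 1.10 and 1.34 FPKM in dLAM libraries against 0.0140, 0.00455 and 0.00376 FPKM in Mono-MΦ libraries.

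RNA of immunoglobulin genes was also listed. Of these, the IgG heavy chain genes encode the constant part that the Fc gamma receptors bind. The IgG heavy chain gene Ighg2c was listed at 4.06, 3.49 and 6.13 FPKM in dLAM libraries and at 0, 0 and 8.43 FPKM in Mono-MΦ libraries, and Ighg2b at 2.19, 2.55 and 0.995 FPKM in dLAM libraries and at 0, 0 and 3.83 FPKM in Mono-MΦ libraries. Both overlapped between the groups, through Mono-MΦ library 3, and neither was called (limma adjusted p = 0.25 and 0.40). Ighg1 (up to 6.57 FPKM, in dLAM library 2) and Ighg3 (up to 2.83 FPKM, in dLAM library 3) were above 0 in every dLAM library and listed at 0 in every Mono-MΦ library. Neither passed the filter on low values. The kappa light chain gene Igkc was at 524, 151 and 144 FPKM in dLAM libraries against 5.49, 0 and 35.7 FPKM in Mono-MΦ libraries (log2 fold change 5.19, SE 1.19, limma adjusted p = 0.014). The IgM heavy chain gene Ighm was at 313, 49.9 and 88.6 FPKM in dLAM libraries against 33.8, 12.3 and 27.6 FPKM in Mono-MΦ libraries (2.25, SE 0.65, limma adjusted p = 0.035). Both were higher in dLAMs, as were the B and plasma cell markers, whose part was not tested.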

How the data were processed

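Each of the 6 bulk RNA libraries has a column of FPKM in the deposited table, computed by the authors. The tools were FastQC, HISAT2 and featureCounts on mm10, per the submitters' processing notes. Their versions and settings, the strand handling, the annotation and the gene lengths were not given in the sources used here. Since FPKM are no counts, count models were not applied. Low values move in steps of 1 fragment, which gave the depth with GENCODE M21 exon lengths (94.3% of symbols matched), but of the values under 20 reads only 40.4% to 44.1% were whole to within 0.02, too few to recover counts.

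Genes with at least 1 FPKM in at least 3 libraries were tested. log2(FPKM + 1), which understates changes of low genes, was fitted in limma 3.58.1 (R 4.3.3) with a group term and trended empirical Bayes moderation, after a check on simulated data. P-values were adjusted by Benjamini-Hochberg over all genes tested, with a threshold of 0.05, and log2 fold changes are dLAM minus Mono-MΦ. Promoters came from RefSeq and all 8 genes matched. Named genes are the 8, up to 3 called genes per direction in each list with the largest change, and the 2 nearest patterns of each called member; Tyrobp, Ptpn6, B2m and the immunoglobulin genes were added for context. The genes and lists were chosen with earlier results of these data known. Alternatives covered pseudocounts, filters, scaling, moderation, the replicate number, Y-linked RNA (Ddx3y above 5 FPKM) and leaving out each library.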

Additional observations from a re-analysis of the deposited data

How the results depend on the processing

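Under 17 alternatives no log2 fold change of the 8 genes changed sign, and Fcgr2b, Fcgr4 and Fcgrt passed and Fcer1g did not pass in each. The causes of the changes below were not tested. Fcgr1 passed on the TPM scale (0.56), with quantile normalization (0.59) and with the term for Y-linked RNA (0.51), and Fcgr3 with quantile normalization (0.51). Syk did not pass on the TPM scale (-0.40) or within the 4 libraries that had less Y-linked RNA (-0.40), so 0 of the 8 genes were lower there. At a filter of 5 FPKM, with fewer genes tested, 1247 genes were higher, and within the 4 libraries 1480 were higher and 780 lower.

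Among the other Fc receptor and IgG handling genes, 8 were higher with no filter and 3 with median-of-ratios scaling or within the 4 libraries. Their median was 2.10 and 0.74 at pseudocounts of 0.1 and 5, 0.54 with no filter, 1.25 at 5 FPKM and 0.66 with quantile normalization. Of the ITAM list 0 were lower with no filter or within the 4 libraries, and 2 without a trend or with the Y-linked term. At 5 FPKM 1 Src family kinase was higher and their median was -0.28, and within the 4 libraries 1 was lower. Of the genes downstream of Syk 2 were lower on the TPM scale or within the 4 libraries, and with median-of-ratios scaling their median was -0.09. Of the actin list 0 were lower with quantile normalization or within the 4 libraries, and the median was -0.17 with median-of-ratios scaling. Of the inhibitory list 3 were lower within the 4 libraries.

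Leaving out single libraries gave 1590 to 2096 genes higher and 780 to 1220 lower, 3 to 5 of the 8 genes higher and 1 lower, and log2 fold changes of 0.35 to 0.65 for Fcgr1 and 0.37 to 0.45 for Inpp5d. It gave 3 to 5 higher genes among the other Fc receptors, and 0 to 1 (ITAM), 2 to 5 (downstream of Syk), 0 to 1 (actin) and 3 to 5 (inhibitory) lower genes, with actin medians of -0.10 to -0.01.

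Libraries with the same replicate number did not deviate together (correlations of 0.189, -0.147 and -0.089 across genes), so the numbers were not taken to pair them. The largest correlation was 0.386, between dLAM library 3 and Mono-MΦ library 2, the libraries with more Y-linked RNA. Whether libraries of different groups share a source under other numbers is not in the labels and was not tested. With the replicate number as a block, 1860 genes were higher and 999 lower, no call of the 8 genes changed (Syk adjusted p = 0.039, Inpp5d adjusted p = 0.042 in limma), 3 other Fc receptor genes were higher, 3 genes downstream of Syk lower and 0 actin genes lower. Depth limits Fcgrt in Mono-MΦs and the low Fc receptor genes most.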
